A study of Mus musculus with 10 samples.

Results

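The genes described here build and start the replicative helicase of mouse cells: Mcm2, Mcm3, Mcm4, Mcm5, Mcm6, Mcm7, Mcm10, Cdc6, Cdt1 and Gins2. They were chosen by symbol through the GENCODE M21 annotation, which gave 10 rows of the 18012 genes in the table, and all 10 passed the filter on low values. The RNA came from tumours that the BALB/c mammary carcinoma line 4T1 had formed after 3 weeks in BALB/c mice. In the KO group (5 libraries) a gene was knocked out in the 4T1 cells, and in the WT group (5 libraries) the 4T1 cells were wild-type. All 10 libraries came from frozen, sectioned tumour tissue of batch 1, with in vivo growth as the treatment given. Whether the KO cells were 1 clone or a pool, and the age of the mice, are not given in the sources used here. Nothing in those sources says that each library came from its own mouse, so the spread behind each p-value may in part be technical.

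Before a cell copies its DNA, origins of replication are licensed. The origin recognition complex, Cdc6 and Cdt1 load a ring of Mcm2, Mcm3, Mcm4, Mcm5, Mcm6 and Mcm7 around the DNA in G1. At the start of S phase the ring is turned into the active helicase by Cdc45 and the GINS complex, of which Gins2 is a subunit, with Mcm10 taking part in the step. Geminin (Gmnn) binds Cdt1 and blocks a second loading in the same cycle. Transcription of most of these genes depends on E2F factors and is high in proliferating cells, so the genes are widely used as markers of proliferation in tumours.

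The promoters are shown first because they are what most of the genes share beside their function. RefSeq promoters (GRCm38.p6, 250 bases before to 50 bases after the start) were at hand for 8 of the 10 genes, and Mcm7 had 2, which made 9. Mcm4 and Gins2 had no entry. Searched words were the E2F words TTTGGCGC, TTTCCCGC, TTTGCCGC and TTTCGCGC and the NF-Y word CCAAT, on both strands, and E2F words that overlap each other were each counted. At least 1 E2F word stood in 6 of the 9 promoters (66.7%), against 744 of the 32851 promoters of the table (2.265%). At least 2 stood in 4 of the 9 (44.4%), against 0.097% of all promoters. CCAAT stood in 7 of the 9 (77.8%), against 37.4% of all promoters. The 4 promoters below belong to the 3 genes with the smallest p-values in the comparison of KO with WT tumours and to Mcm7, the gene with the highest level per length. Each is written 5′ to 3′ on the strand of its gene, with E2F words in capitals.
Mcm5 (chr8:75109259-75109558, plus strand): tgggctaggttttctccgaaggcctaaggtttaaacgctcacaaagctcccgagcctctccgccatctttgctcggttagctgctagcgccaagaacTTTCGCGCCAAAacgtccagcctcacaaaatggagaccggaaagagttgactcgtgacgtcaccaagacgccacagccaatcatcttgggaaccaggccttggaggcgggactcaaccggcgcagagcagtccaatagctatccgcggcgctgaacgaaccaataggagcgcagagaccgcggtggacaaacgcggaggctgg
Mcm6 (chr1:128359656-128359955, minus strand): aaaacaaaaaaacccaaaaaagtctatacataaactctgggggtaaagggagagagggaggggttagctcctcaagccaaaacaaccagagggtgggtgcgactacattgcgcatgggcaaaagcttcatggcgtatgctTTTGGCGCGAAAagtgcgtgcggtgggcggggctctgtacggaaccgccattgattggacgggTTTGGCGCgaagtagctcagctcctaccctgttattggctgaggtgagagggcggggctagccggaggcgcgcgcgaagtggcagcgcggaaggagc
Cdt1 (chr8:122567765-122568064, plus strand): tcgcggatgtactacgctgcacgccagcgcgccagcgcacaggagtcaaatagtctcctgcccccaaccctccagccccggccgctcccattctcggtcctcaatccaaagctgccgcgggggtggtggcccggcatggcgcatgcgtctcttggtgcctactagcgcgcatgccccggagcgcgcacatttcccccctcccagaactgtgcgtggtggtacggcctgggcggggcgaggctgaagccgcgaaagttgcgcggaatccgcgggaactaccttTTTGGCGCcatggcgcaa
Mcm7 (chr5:138171834-138172133, minus strand): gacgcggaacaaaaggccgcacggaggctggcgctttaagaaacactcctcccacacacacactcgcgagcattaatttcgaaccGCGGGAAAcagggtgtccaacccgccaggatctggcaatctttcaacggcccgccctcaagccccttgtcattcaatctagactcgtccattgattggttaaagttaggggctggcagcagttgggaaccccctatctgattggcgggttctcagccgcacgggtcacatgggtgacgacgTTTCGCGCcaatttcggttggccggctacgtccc

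In Mcm6, 2 E2F words overlapped, with first bases at -110 and -106 from the start on opposite strands, and another began at -47. Mcm5 had an overlapping pair too, at -153 and -149. The Mcm7 promoter held words at -165 and 17, and the Cdt1 promoter held a single word at 33, after the start. Mcm3 had words at 20 and 39, and Cdc6 had 1 at -138. No E2F word of this spelling was in the windows of Mcm2, Mcm10 or the other Mcm7 promoter, and no CCAAT was in those of Cdc6 and Cdt1. The RefSeq windows of Cdc6 and Mcm7 lay wholly inside the GENCODE M21 gene, so they hold no bases before its annotated start. A match is a run of letters and not a measured binding site.

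The libraries held 8596772 (KO1) to 19879472 (WT4) reads in genes, and 78 to 3012 reads lay behind each value of the 10 genes. The prefix RESUB stands before the names of WT1, WT2, WT3, WT4 and KO5 and not before those of KO1 to KO4 and WT5, so the prefix and the genotype overlap in large part. WT2 and WT5 carry the same library number, 170. The chi-square per degree of freedom between their reads was 141.67, within the range of 38.27 to 176.43 of the WT pairs. WT2 gave 86.19, 149.27 and 176.43 with WT1, WT3 and WT4, so this value does not tell whether WT2 and WT5 came from the same tumour. WT4 and WT5 stood apart in their trend with GC content, with correlations across genes of 0.521 and -0.403 between GC content and the library's deviation.

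No gene of the 10 passed the test between KO and WT tumours, and all 10 had a fitted value below 0, meaning lower in KO. The data were normalized counts, reads divided by the size factor of the library, compared as log2 of the value plus 1 by limma with a trend and Benjamini-Hochberg adjustment over 17940 genes. The number called at an adjusted p of 0.05 was 0 of 10, against 1 of all genes tested (0.00557%). At an unadjusted p of 0.05, 3 of the 10 were lower in KO (Mcm5, Mcm6 and Cdt1), against 3.67% of all genes. That count was 0 without KO1, without KO3 or without WT4. It was 4 without WT3, which added Mcm3, 2 without KO5 and 1 without KO2, WT1, WT2 or WT5. It was 1 (Cdt1) with nuclear protein-coding scaling or with the GC and length trends removed. The median of the 10 log2 differences was -0.29, against -0.0081 for all genes, of which 51.1% had a value below 0. In none of the 10 were the KO and WT libraries fully apart, which was so for 1.42% of all genes. On the recovered reads, edgeR's quasi-likelihood test called 0 of the 10 and 0.00557% of all genes, with 2 of the 10 lower at an unadjusted p of 0.05 against 4.7% of all. DESeq2 called 0 of the 10 and 0.677% of all genes, with 3 of the 10 lower at an unadjusted p of 0.05 against 4.98% of all. The 10 genes were read from the same 10 libraries, so they are not 10 separate observations of the genotype.

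**Figure D1:**
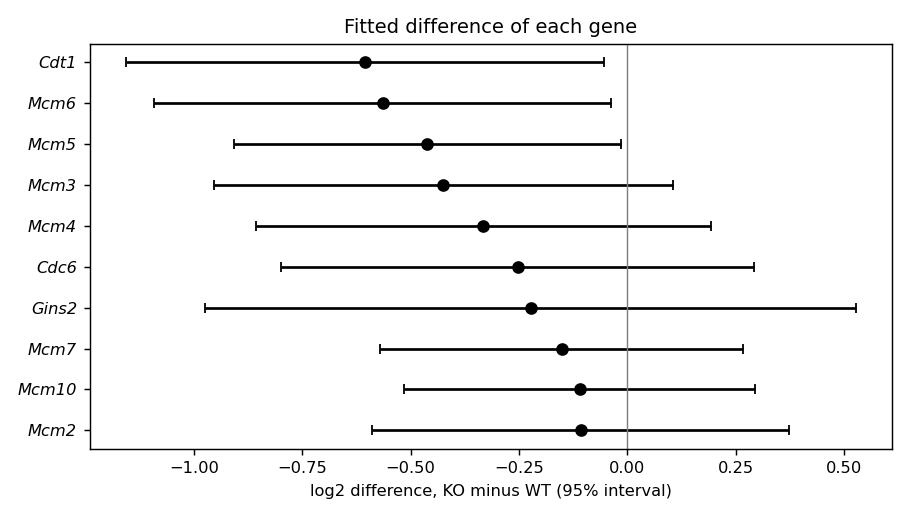
Log2 difference, KO minus WT, of each of the 10 genes, with its 95% interval from limma. All 10 points lie below 0, and the intervals of Mcm5, Mcm6 and Cdt1 alone exclude 0 before adjustment over all genes.

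The helicase ring was measured through its 6 genes. Mcm6, a core subunit, gave the lowest fitted value of the ring. Its normalized counts were 1457, 1293, 891, 1803 and 2375 in KO1 to KO5, against 2503, 2472, 1623, 2179 and 2326 in WT1 to WT5. KO1, KO2 and KO3 were below every WT library, while KO5 was above WT3, WT4 and WT5. The log2 difference was -0.56 ± 0.24 (SE, n = 5 each, 95% interval -1.09 to -0.038, limma adjusted p = 0.747).

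Mcm5, which with Mcm2 forms the gate through which DNA enters the ring, had 909, 966, 609, 1158 and 1094 normalized counts in KO1 to KO5, against 1414, 1236, 935, 1591 and 1290.5 in WT1 to WT5. WT1, WT2, WT4 and WT5 were above every KO library, and WT3 fell among the KO values. The log2 difference was -0.46 ± 0.21 (SE, 95% interval -0.91 to -0.015, limma adjusted p = 0.751). Mcm2 itself differed less, with 833, 837, 509, 931 and 891 in KO1 to KO5 and 794, 832, 583, 1216 and 913 in WT1 to WT5. Apart from the low KO3 and WT3 and the high WT4, the libraries of both groups lay between 794 and 931. For Mcm2 the log2 difference was -0.11 ± 0.22 (SE, 95% interval -0.59 to 0.37, limma adjusted p = 0.971), an interval that still holds the values of Mcm5 and Mcm3.

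Mcm3 and Mcm4 moved nearly together from library to library. For Mcm3 the normalized counts were 1028, 1057, 669, 1207 and 852 in KO1 to KO5, against 1272, 1018, 809.8, 1875 and 1654 in WT1 to WT5. Mcm4, which with Mcm6 and Mcm7 forms a subcomplex with helicase activity of its own, had 1043, 1008, 617, 1051.5 and 845 in KO1 to KO5, against 1137, 854, 758, 1479 and 1675 in WT1 to WT5. In both genes WT1, WT4 and WT5 were above every KO library and KO3 was below every WT library. The log2 differences were -0.42 ± 0.24 for Mcm3 and -0.33 ± 0.24 for Mcm4 (SE, limma adjusted p = 0.849 and 0.891).

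Mcm7, the remaining ring subunit, was not low in KO3 as the other ring genes were. It had 1474, 1065, 1372, 1387 and 989 normalized counts in KO1 to KO5, against 1425, 1214, 1025, 1863 and 1511 in WT1 to WT5. The groups overlapped over most of their range. The log2 difference was -0.15 ± 0.19 (SE, limma adjusted p = 0.954). The gene shares 321 exonic bases with Ap4m1 and 64 with Cops6, both on the other strand, and holds the miRNA genes Mir25, Mir93 and Mir106b. The use of strand in counting is not given in the sources used here, so reads of these genes could not be told apart in the shared bases. Ap4m1, a subunit of an adaptor complex, had 509 normalized counts in KO3 and 302 to 393 in the other KO libraries. Among the WT libraries it was highest in WT3 (454), where Mcm7 was lowest. Cops6, a subunit of the COP9 signalosome, was lowest in KO3 (716) of all 10 libraries.

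**Figure D2:**
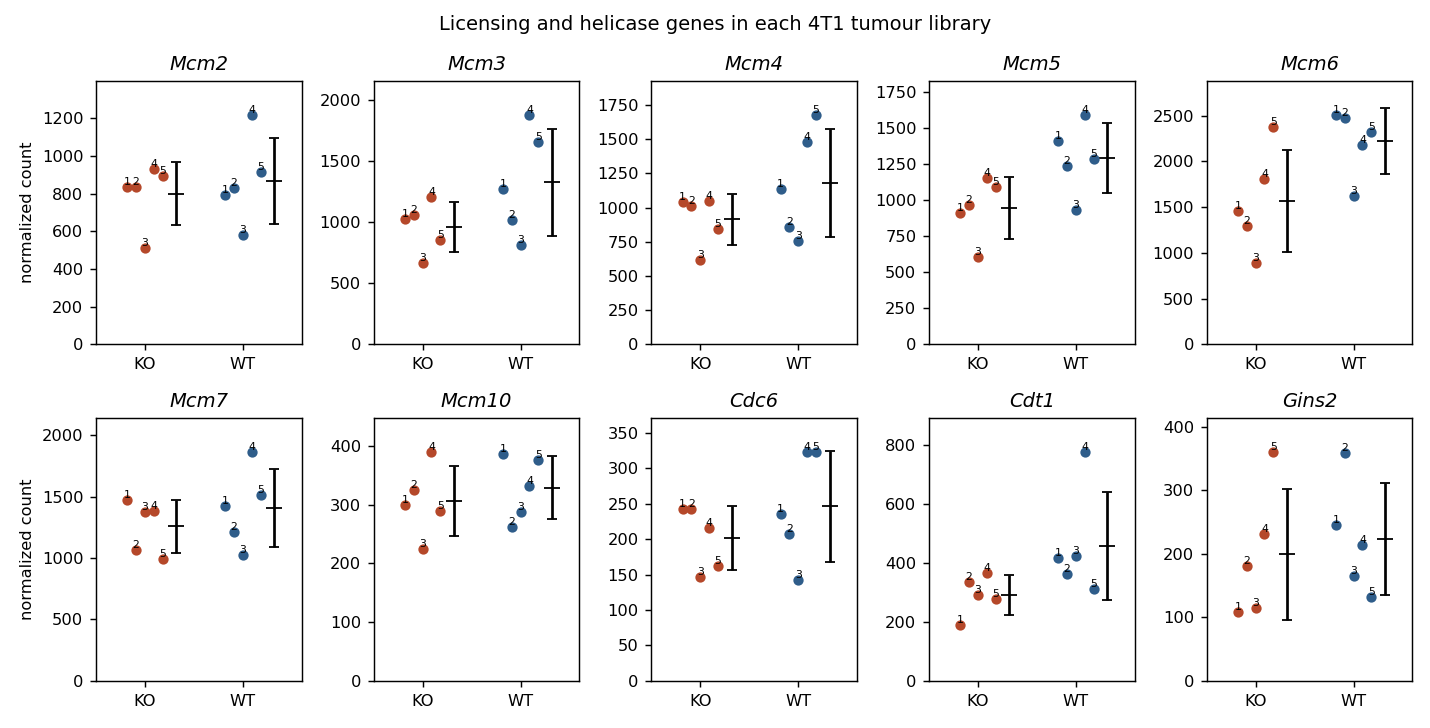
Normalized counts of each of the 10 genes in every library, KO left of WT, on axes with their own range, with the group mean and SD. KO3 is the lowest library for 6 of the 10 genes and WT4 the highest for 6, and no gene has groups that are fully apart.

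The loaders were Cdc6 and Cdt1. Cdt1, which carries the ring to the origin, had the lowest fitted value of all 10 genes. Its normalized counts were 190.2, 338, 291, 368 and 277 in KO1 to KO5, against 418, 362, 425, 778 and 311 in WT1 to WT5. KO1, KO3 and KO5 were below every WT library, and WT1, WT3 and WT4 were above every KO library. The means were 293 ± 67.9 in KO and 459 ± 184 in WT (SD), a log2 difference of -0.61 ± 0.25 (SE, 95% interval -1.16 to -0.055, limma adjusted p = 0.737). Without WT4 the log2 difference of Cdt1 was -0.40.

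Cdc6, an ATPase that joins the origin recognition complex to recruit Cdt1 and the ring, had 243, 243, 146, 216 and 161.5 normalized counts in KO1 to KO5, against 236, 208, 142, 323 and 322 in WT1 to WT5. WT4 and WT5 were above the rest, and the other WT libraries lay within the KO range or, in WT3, just below it. The log2 difference was -0.25 ± 0.25 (SE, limma adjusted p = 0.939).

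Gmnn, the inhibitor of Cdt1, had 108, 126, 68.9, 183 and 230 normalized counts in KO1 to KO5, against 131, 216, 68.9, 98.5 and 124 in WT1 to WT5. The log2 ratio of Cdt1 to Gmnn was 0.81, 1.42, 2.06, 1.00 and 0.27 in KO1 to KO5, against 1.66, 0.75, 2.61, 2.97 and 1.32 in WT1 to WT5. The groups overlapped, with means of 1.11 ± 0.67 in the 5 KO libraries and 1.86 ± 0.92 in the 5 WT libraries (SD). The difference of -0.75 gave p = 0.198 in a two-sided exact permutation test over 252 arrangements, of which the smallest possible p is 0.0079.

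Of the genes that act when the ring is turned on, Mcm10 had 299, 325, 225, 389 and 289.9 normalized counts in KO1 to KO5, against 386, 262, 287, 332 and 376 in WT1 to WT5. The highest library was in the KO group (KO4) and so was the lowest (KO3). The log2 difference was -0.11 ± 0.19 (SE, 95% interval -0.51 to 0.30, limma adjusted p = 0.966), and -0.0050 without KO3. Gins2 spread the most between libraries, with 109, 181, 115, 231 and 361 normalized counts in KO1 to KO5, against 246, 359.7, 165.1, 214 and 132 in WT1 to WT5. KO5 and WT2 were nearly equal at the top. The log2 difference was -0.22 ± 0.35 (SE, 95% interval -0.97 to 0.53, limma adjusted p = 0.961). Single libraries moved it widely, to -0.030 without WT2, -0.043 without KO1 and -0.063 without KO3, and to -0.47 without KO5 and -0.39 without WT5. Within groups the coefficient of variation of Gins2 was 51.7% in KO and 39.4% in WT, while that of Mcm10 was 19.5% in KO and 16.4% in WT. Gins2 shares 2758 exonic bases with Gse1 on the other strand, so its value can hold reads of Gse1. Gse1 had 357, 287, 533, 273 and 128 normalized counts in KO1 to KO5, against 310.0, 195.8, 560.3, 869.6 and 258.1 in WT1 to WT5, and was lowest in KO5, where Gins2 was highest.

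Levels between genes were compared as normalized counts per kb of exon. The length was that of all exons of a gene's basic protein-coding transcripts in GENCODE M21, merged, and not of a single transcript. It ran from 2.19 kb for Cdt1 to 4.95 kb for Mcm10, and the order below depends on it. The order by the mean of both groups was Mcm7, Mcm6, Mcm3, Mcm5, Mcm4, Mcm2, Cdt1, Mcm10, Gins2 and Cdc6. Mcm7 averaged 424 ± 72.8 per kb in KO and 475 ± 107 in WT, and Cdc6 averaged 42.2 ± 9.53 in KO and 51.5 ± 16.3 in WT (SD). The 6 ring genes thus stood together at the top of the per-kb scale. Neighbours among them did not separate beyond their spread: Mcm7 was above Mcm6 in 5 of the 10 libraries, Mcm6 above Mcm3 in 5, Mcm3 above Mcm5 in 7, Mcm5 above Mcm4 in 7 and Mcm4 above Mcm2 in 8. Mcm2 was above Cdt1 in 9 libraries, the exception being WT3. Cdt1 was above Mcm10 in all 10 libraries, and it was the 1 step of the order that every library showed. Mcm10 was above Gins2 in 8 libraries and Gins2 above Cdc6 in 5.

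The proteins of the ring come in equal numbers, so the split of its RNA was also given as a share of the summed normalized counts per kb of Mcm2 to Mcm7. Of this sum Mcm6 made up 18.9% ± 5.06 in the 5 KO libraries and 21.8% ± 3.65 in the 5 WT libraries (SD), from 14.7% in KO3 to 27.5% in KO5. Mcm7 made up 23.4% ± 6.37 in KO and 19.99% ± 1.08 in WT, with 33.4% in KO3. In KO3 the normalized count of Mcm7 (1372) lay within the 989 to 1474 of the other KO libraries. The other ring genes were each lowest in KO3, so the high share there is not a raised level of Mcm7. The widest spread of the Mcm6 and Mcm7 shares was within the KO group. Mcm2 made up 12.6% ± 1.09 in KO and 10.8% ± 1.01 in WT, from 10.9% to 13.7% in KO and from 9.67% to 12.1% in WT. Mcm3, Mcm4 and Mcm5 made up between 11.1% and 20.8% each in every library.

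**Figure D3:**
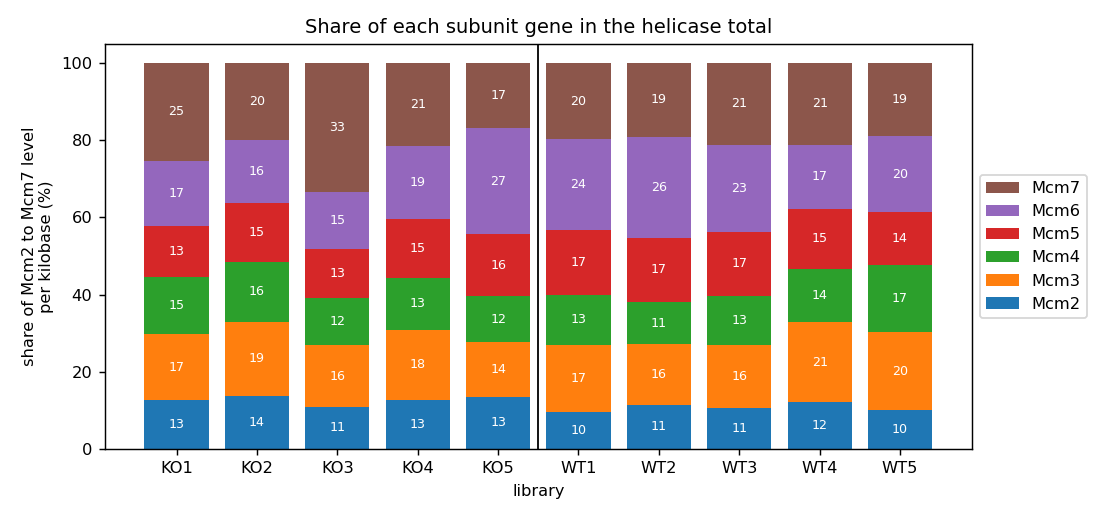
Share of each ring gene in the summed normalized counts per kb of Mcm2 to Mcm7, in percent, for every library, KO left of WT. The Mcm7 share of 33.4% in KO3, where the other ring genes are at their lowest, stands out from the other libraries, the next being 25.3% in KO1. The Mcm6 share is highest in KO5 (27.5%), close to WT2 (26.2%).

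Across the 10 libraries most of the genes moved together. Pearson's r of the log2 values was above 0 for 42 of the 45 pairs, highest for Mcm3 with Mcm4 (0.96) and lowest for Mcm7 with Gins2 (-0.32). The share above 0 over all pairs of genes was not computed. Against the mean of Mcm2 to Mcm7, r was 0.86 for Cdc6, 0.74 for Mcm10, 0.49 for Cdt1 and 0.29 for Gins2. With the 2 libraries farthest from the median of that mean left out, these were 0.77, 0.66, 0.013 and -0.010. All are descriptions over libraries that share size factors and differences in depth, and no test was made. KO3 was the lowest library for 6 of the 10 genes and WT4 the highest for 6. WT3 was among the 3 lowest libraries for 7 genes, and WT1 and WT5 were among the 3 highest for 7 each. The mean log2 level of the 10 genes was 9.11, 9.22, 8.72, 9.43 and 9.27 in KO1 to KO5, against 9.55, 9.40, 9.04, 9.83 and 9.56 in WT1 to WT5. KO3 and WT3 were thus the lowest of their groups, and KO4 and WT4 the highest. KO3 had 9492502 reads in genes and the highest spike-in share of reads (0.545%), while WT3 had 11745496 reads and a share of 0.229%. WT4 had the most reads, 19879472. Whether depth or spike-in share bears on these levels was not tested. With KO3 left out the median difference of the 10 genes was -0.19, with WT4 left out it was -0.23, and with WT3 left out it was -0.45.

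**Figure D4:**
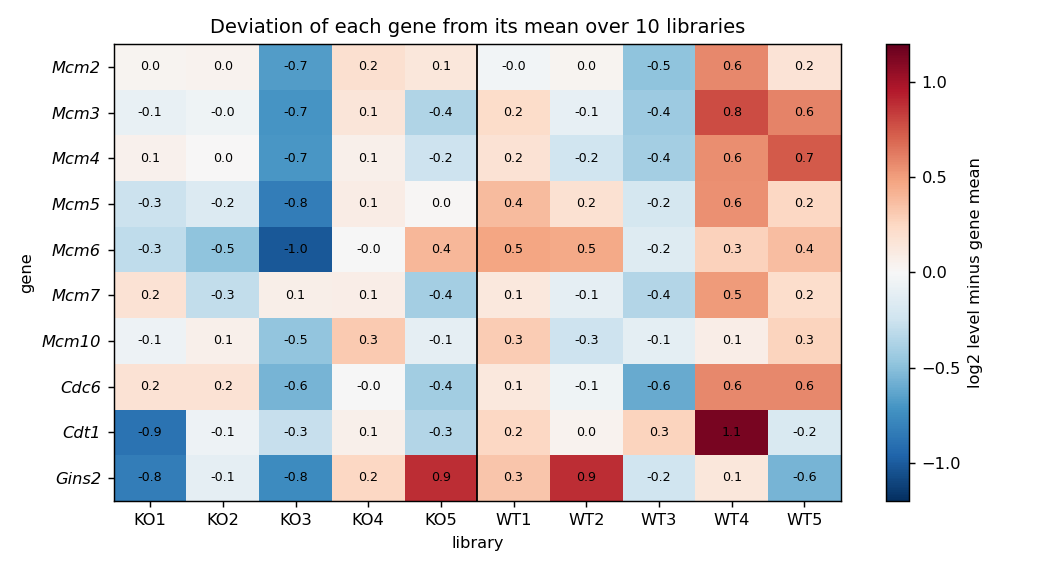
Log2 value of each of the 10 genes in each library minus the gene's mean over the 10 libraries, KO left of WT. KO3 is among the 3 lowest libraries for 9 of the 10 genes, Mcm7 being the exception, and WT4 is among the 3 highest for 7.

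The library prefix did not separate the genes cleanly. Mcm5 ran from 935 to 1591 normalized counts in the RESUB libraries and from 609 to 1290.5 in the others, and Gins2 from 165.1 to 361 and from 109 to 231. Within the RESUB libraries (1 KO, 4 WT; the lone KO library was assumed to vary like the WT ones) the median difference of the 10 genes was -0.24, with 7 of 10 below 0 and Mcm2, Mcm6 and Gins2 above it. Within the other libraries (4 KO, 1 WT) it was -0.42, with 9 of 10 below 0 and Gins2 above it. For Mcm6 the log2 difference was 0.13 within the RESUB libraries, and with the prefix as a term in the model no gene of the 10 had an unadjusted p under 0.05.

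The rest of the pathway was looked at through 5 lists. None of their genes passed limma, edgeR or DESeq2. Among 24 other genes of origin licensing and helicase activation, 18 had a fitted value below 0, against 51.1% of all genes. At an unadjusted p under 0.05 there were 0, against 3.67% of all genes lower, and the median log2 difference was -0.10. Lrwd1, which binds the origin recognition complex, had a log2 difference of -0.25, Dbf4, the activating subunit of the kinase that phosphorylates the ring, -0.30, Ticrr, an activator of origin firing, -0.38, and Gins3, another GINS subunit, -0.37 (limma adjusted p = 0.872 to 0.877). Cdc45, the partner of the ring in the active helicase, averaged 315 ± 76.2 normalized counts in KO tumours and 359 ± 73.5 in WT tumours (SD), a log2 difference of -0.20.

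Of 30 replication fork genes 24 had a fitted value below 0, against 51.1% of all genes, with a median of -0.26 and none at an unadjusted p under 0.05 in limma. Timeless, a fork protection factor, was the 1 gene of the list whose groups did not overlap, which was so for 1.42% of all genes. It had 186 to 204 normalized counts in KO and 214 to 323 in WT (log2 difference -0.35, limma adjusted p = 0.772). Lig1, the ligase that seals Okazaki fragments, had a log2 difference of -0.43, and Pola1, the catalytic subunit of the primase polymerase, -0.50. Rpa3, the smallest subunit of the single-strand binding complex, lay on the other side at 0.60 (limma adjusted p = 0.787). Pcna, the sliding clamp, had a log2 difference of -0.087 ± 0.29 (SE).

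Of 20 genes of S phase nucleotide supply and chromatin assembly 19 had a fitted value below 0, against 51.1% of all genes, with a median of -0.31. Tk1, the thymidine kinase of S phase, was the only one at an unadjusted p under 0.05. That was 5.0% of the list, near the 3.67% of all genes that were lower at this threshold. Tk1 had 551 to 719 normalized counts in KO and 560.5 to 1003 in WT (log2 difference -0.41, limma adjusted p = 0.748). Chaf1a had a log2 difference of -0.43, Uhrf1 -0.40 and Tyms, the thymidylate synthase, -0.42. In the list of E2F and RB family genes and G1/S cyclins 16 of 21 had a fitted value below 0, against 51.1% of all genes, with a median of -0.20. E2f1, an activator of the family, had 280, 271, 229, 292 and 504 normalized counts in KO1 to KO5, against 395, 658, 326, 549.5 and 319 in WT1 to WT5 (log2 difference -0.51, limma adjusted p = 0.787). KO5 was the KO library that reached into the WT range. E2f6, a repressor of the family, had a log2 difference of 0.43, Rbl1 -0.32 and Tfdp1 -0.30.

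The G2 and M phase list holds genes that act after replication. Of its 30 genes 29 had a fitted value below 0, against 51.1% of all genes, and the median was -0.29. At an unadjusted p under 0.05, 5 were lower, against 3.67% of all genes. The groups did not overlap for Aurkb, a mitotic kinase, with 187 to 296 normalized counts in KO and 302 to 642 in WT, or for Plk1, another, with 262 to 355 in KO and 359 to 762 in WT (limma adjusted p = 0.671 and 0.728), against 1.42% of all genes whose groups did not overlap. Mki67, the proliferation antigen, averaged 6403 ± 1685 normalized counts in KO tumours and 8296 ± 3610 in WT tumours (SD), a log2 difference of -0.30 (limma adjusted p = 0.939). No difference between the lists was tested. E2F words stood in 1 of 27 promoters of the G2 and M phase list and CCAAT in 22, while E2F words stood in 6 of 22 for the other licensing genes, 10 of 30 for the fork, 3 of 19 for S phase and 8 of 20 for the E2F list.

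**Figure D5:**
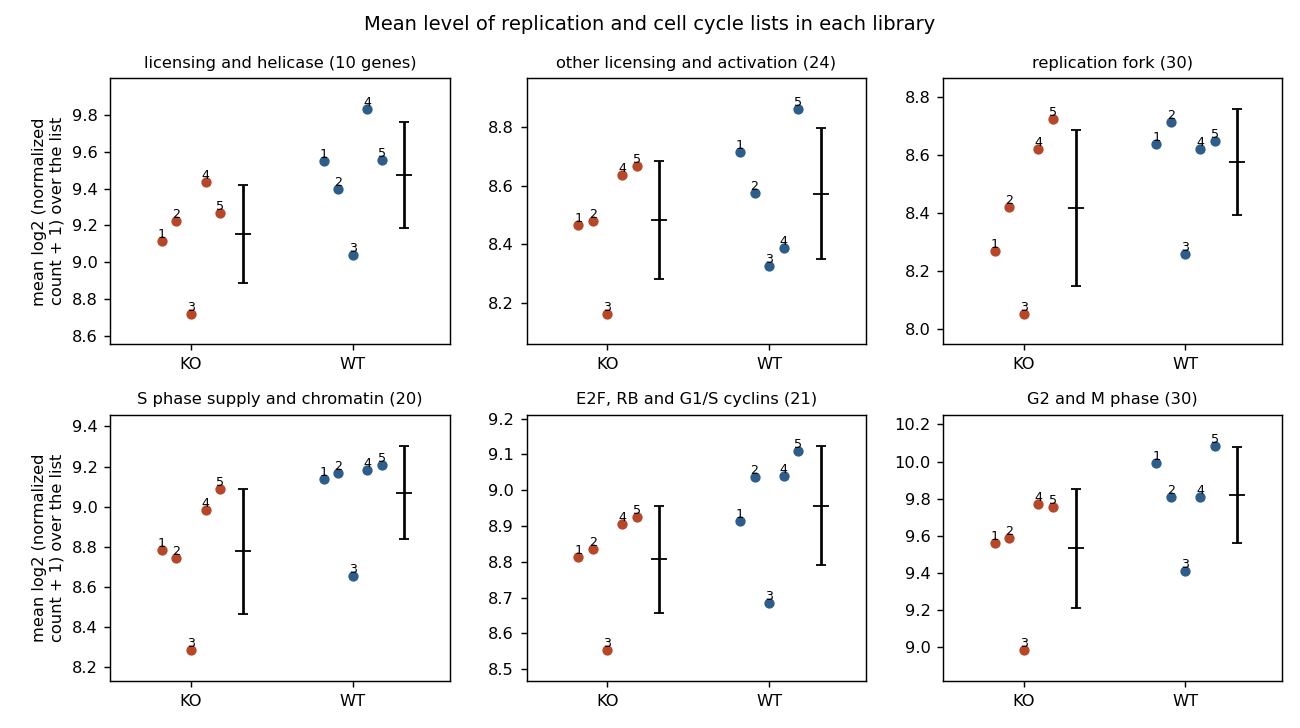
Mean log2 level of the 10 genes and of each of the 5 other lists in every library, KO left of WT, each panel with its own range. KO3 is the lowest library in all 6 panels and WT3 the lowest WT library in all 6.

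KO3 and WT3 were the low libraries of their groups in every one of these lists, as they were for the 10 genes. The mean log2 level of the G2 and M phase list was 8.98 in KO3 and 9.41 in WT3, against 9.56 to 9.77 in the other KO libraries and 9.81 to 10.1 in the other WT libraries.

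Markers of some cell types also differed in level between the groups. No carcinoma or leukocyte marker passed limma (smallest adjusted p = 0.372 for carcinoma and 0.482 for leukocyte markers) or edgeR. DESeq2 called 1 carcinoma marker (adjusted p = 0.0011) and 1 leukocyte marker (adjusted p = 0.040), against 0.677% of all genes. Fibroblast and endothelium markers had a fitted value above 0 in 6 of 12 (median 0.0027). Erythroid and haematopoietic precursor markers had one in 7 of 8 tested (median 0.28). Neither of these 2 lists had a gene at an unadjusted p under 0.05 in limma. In bulk tissue fewer cells of a type and less RNA per cell cannot be told apart. All 15 carcinoma markers had a fitted value below 0, against 51.1% of all genes (median -0.82 on the log2 scale). At an unadjusted p under 0.05 in limma, 11 were lower, against 3.67% of all genes. Summed normalized counts of the 15 were 15538 to 22474 in KO and 22100 to 42282 in WT. None of them was at 0 in any library, and Epcam, their defining surface protein, averaged 1317 ± 613 in KO and 2956 ± 923 in WT (SD). Leukocyte markers were above 0 in 15 of 19 tested, with a median of 0.40 and sums of 8825 to 11091 in KO and 6889 to 9338 in WT. At an unadjusted p under 0.05 in limma, 6 were higher and 2 lower, the lowest at -1.90, against 507 and 659 of all 17940 genes. Their mean log2 level overlapped, with 7.06 to 7.52 in KO and 6.52 to 7.56 in WT, where WT2 was highest. Ptprc averaged 3436 ± 196 in KO and 2644 ± 501 in WT. With a carcinoma score as a covariate the median difference of the 10 genes was -0.35, Mcm7 was at 0.16 and Cdt1 at -0.20. With a leukocyte score it was -0.14, and Mcm10 was at 0.046.

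Skin and muscle were uneven between libraries. Keratinocyte markers had a fitted value below 0 in 12 of 12, against 51.1% of all genes, with sums of 220 to 539 in KO and 565 to 14547 in WT. At an unadjusted p under 0.05 in limma, 11 of the 12 were lower, against 3.67% of all genes. After adjustment limma and edgeR called none (smallest limma adjusted p = 0.482), while DESeq2 called 7, against 0.677% of all genes. Krt1 was at 0 in all KO libraries and in WT1 and WT4. Muscle markers had a fitted value below 0 in 12 of 12, against 51.1% of all genes, with sums of 835 to 6590 in KO and 811 to 120060 in WT. None was at an unadjusted p under 0.05 in limma. At that threshold 10 were lower in edgeR, against 4.7% of all genes, and 9 in DESeq2, against 4.98%. No muscle marker was called after adjustment by any of the 3 methods. Acta1 was at 0 in KO3. Without WT2, WT3 and WT5, the WT libraries in which Krt1 was found, the median difference of the 10 genes was -0.51. It was -0.53 once a keratinocyte score entered the model, and -0.18 with a muscle score, with Mcm2 and Gins2 above 0.

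The genes whose pattern was most like the ring were found by Pearson's r, over the 10 libraries, between their log2 value and the mean of Mcm2 to Mcm7. The 8 highest were Rpa1 (0.96), Polh (0.95), Lrrc8a (0.94), Dhx29 (0.93), Ywhaz (0.93), Mrgpre (0.92), Stip1 (0.92) and Uhrf1 (0.92). With the 2 libraries farthest from the median left out, r lay between 0.78 and 0.89 for these 8. The 8 were chosen for a high r in the same libraries, so this is no separate support for their likeness. Rpa1, the large subunit of the single-strand binding complex, had 554 to 863 normalized counts in KO and 663 to 1237 in WT, a log2 difference of -0.29 (limma adjusted p = 0.889). Each ring gene against the mean of the other 5 gave an r of 0.93 for Mcm3, 0.91 for Mcm5, 0.88 for Mcm4, 0.84 for Mcm2, 0.65 for Mcm6 and 0.49 for Mcm7. Without the 2 farthest libraries these were 0.86 for Mcm3, 0.77 for Mcm5, 0.75 for Mcm4, 0.54 for Mcm2, 0.40 for Mcm6 and 0.68 for Mcm7, so the order of the lower values rests on those libraries.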

How the data were processed

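Total RNA of 10 frozen 4T1 tumour samples was depleted of ribosomal RNA and sequenced, per the labels' protocols. The authors deposited normalized counts (a signal never below 0). Per the submitters' processing notes, bcl2fastq 2.17 and the build GRCm38 were used. Aligner, counter, strand setting and any use of molecular identifiers are not given in the sources used here. All values (100%, within 0.0001) were whole multiples of 1 read, so reads were recovered. Of the 18047 rows, 35 were spike-in RNAs (0.151% of reads in KO1 to 0.545% in KO3) and were left out. Symbols came from GENCODE M21 for 17961 of 18012 genes.

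The main test of KO against WT was limma 3.58.1 with a trend, in R 4.3.3, on log2(normalized count + 1), for genes with a mean of at least 10 (17940 tested, 72 below), with Benjamini-Hochberg adjustment at 0.05. Differences on this scale understate those of low genes. Among 30 alternatives, the recovered reads were tested with edgeR 4.0.16 and with DESeq2 1.42.0. The limma fit was also run on simulated counts. Their planted differences were larger than those fitted for the 10 genes, and no tissue mixture or prefix effect was simulated. That run therefore does not bear on differences of the size found here. Errors come from the spread between libraries, and depth (8596772 to 19879472 reads) covers counting error only.

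The members and lists were chosen with earlier results of these data known. Named are all 10 members, up to 4 genes of each list with the smallest p, the 8 genes most like Mcm2 to Mcm7, fixed reference genes, and genes that overlap a member. The per-library remarks on KO3, WT3 and WT4 were made after the values were seen. A planned check of the labels is not reported here. Figures were drawn with Python 3.11.15 and matplotlib 3.10.9.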

Additional observations from a re-analysis of the deposited data

Results flagged for a closer look

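Among 34 groups of 5 libraries examined, 2 held a library whose gap to its nearest neighbour was a larger share of the range of the group than Dixon's 95% critical value, which chance gives in about 5% of groups. Mcm2 was lowest in KO3, with 509 normalized counts against 833 to 931 in the other KO libraries. With KO3 left out the log2 difference of Mcm2 was 0.048. Cdt1 was highest in WT4, with 778 normalized counts against 311 to 425 in the other WT libraries. With WT4 left out the log2 difference of Cdt1 was -0.40.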

How the results depend on the processing

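None of the 10 genes was called by any of the 30 alternatives, and the median of their differences stayed below 0 in all of them, from -0.53 to -0.14. Of 300 values of single genes, 12 had the other sign than the main one, and none of these passed the test. The sign turned for Mcm2 with sample weights (0.019), with the muscle score (0.039) and within the RESUB libraries (0.11), and leaving out 1 library gave it values from -0.24 to 0.048 (above 0 without KO3 or WT4). It turned for Gins2 with the RESUB term (0.40), the muscle score (0.030), within the RESUB libraries (0.61) and within the others (0.20). It turned for Mcm6 within the RESUB libraries (0.13), for Mcm7 with the carcinoma score (0.16) and for Mcm10 with the leukocyte score (0.046). Within the RESUB libraries the medians of 4 lists were above 0, at 0.19 for the other licensing genes, 0.12 for the fork, 0.11 for S phase and 0.099 for the E2F list. The Cdt1 to Gmnn log2 difference was -1.73 within the RESUB libraries (exact permutation p = 0.2) and 0.0050 within the libraries without the prefix (exact permutation p = 1.0), where 1 library against 4 cannot pass the threshold, and -1.03 to -0.47 when 1 library was left out. The causes were not tested.

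The count of all genes called was 1 in the main fit, 121 with DESeq2, 404 with sample weights, 74 with the muscle score and 52 within the libraries without the prefix. It was 0 with the keratinocyte, carcinoma or leukocyte score, within the RESUB libraries, with WT2 and WT5 averaged and without WT2, WT3 and WT5, and 0 to 3 when 1 library was left out. Each fit with fewer libraries has less precision by its construction.

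KO and WT libraries carry the same replicate numbers. With the replicate block, 1 gene was called in all, 0 of the 10 were called, and their smallest adjusted p was 0.581 (limma). Same-numbered libraries correlated at 0.015, 0.099, 0.522, 0.026 and -0.229, and only KO3 correlated best with its own number, so the numbers were not taken as pairs.

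With 5 libraries a group and SEs of 0.19 to 0.35 on the log2 scale, differences of the size fitted here were not detectable gene by gene after adjustment. The prefix and the genotype can be told apart only through KO5 and WT5. A planned comparison of protein sequences was not run.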

Other observations

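Mcm4 lies head to head with Prkdc, the catalytic subunit of a DNA repair kinase, with 466 bases between the 2 genes. Prkdc had 998, 834, 724, 760.3 and 618 normalized counts in KO1 to KO5, against 873, 413, 717, 508 and 1152 in WT1 to WT5. Mcm4 was highest in WT5, as Prkdc was, while WT4 was second for Mcm4 and second lowest for Prkdc. The log2 difference of Prkdc was 0.18 ± 0.26 (SE, limma adjusted p = 0.958). Across the 10 libraries Pearson's r of Prkdc with the mean of Mcm2 to Mcm7 was -0.016, and that of Ptprc was -0.62, given as descriptions. With the 2 farthest libraries left out they were 0.34 for Prkdc and -0.13 for Ptprc, so neither value holds without those libraries. The cell cycle references gave 0.65 for Cdc45, 0.53 for E2f1, 0.50 for Mki67, 0.43 for Pcna and 0.37 for Gmnn. Without the 2 libraries these were 0.69, 0.089, 0.54, 0.36 and 0.34. The tissue markers gave 0.73 for Acta1, 0.31 for Epcam and 0.0016 for Krt1, and 0.61, 0.25 and -0.042 without the 2 libraries. Cops6, which shares bases with Mcm7, had 716 to 1734 normalized counts in KO and 787 to 1976 in WT, and Aprt, 1081 bases from Cdt1, had 1147 to 1939 in KO and 1106 to 1970 in WT. Neither gene had groups that were fully apart.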
